A study of Homo sapiens with 14 samples.

Results

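The 10 genes described here are DUSP4, DUSP5, DUSP6, SPRY1, SPRY2, SPRY4, SPRED1, SPRED2, ETV4 and ETV5, taken by name as a readout of signalling through the kinases MEK and ERK. They are 10 of the 20049 gene symbols measured by RNA sequencing in 14 human neuroblastoma cell lines, tumour cells of the sympathetic nervous system kept in culture. The lines were CLB-GA, Lan-6, SH-SY5Y, SK-N-SH, SK-N-AS, SK-N-FI, GI-ME-N, NBL-S, SK-N-BE(2)C, LS, NGP, IMR32, IMR5-75 and SK-N-DZ. The labels give no treatment, and the lines were grown in RPMI1640 or DMEM medium with fetal bovine serum and without antibiotics, and gave 1 library each. The labels place them in 1 group, neuroblastoma, and give no genotype.

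ERK, the last kinase of the RAS, RAF and MEK cascade, switches on genes whose products switch the cascade off again. DUSP phosphatases take the phosphate off ERK, Sprouty proteins (SPRY) act between receptors and RAF, and SPRED proteins bring the RAS inhibitor neurofibromin to the membrane. ETV4 and ETV5 are ETS transcription factors that rise with ERK activity and are held down by the repressor CIC when the pathway is quiet. In neuroblastoma the pathway is known to be switched on by mutation of the receptor ALK or of NRAS, or by loss of NF1, which encodes neurofibromin. From general knowledge of the lines, and not from the labels, SK-N-SH, its subclone SH-SY5Y, CLB-GA and Lan-6 carry an ALK mutation, SK-N-AS carries an NRAS mutation, and GI-ME-N and SK-N-FI have lost NF1. The other 7 lines are not claimed here to be free of such lesions.

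The start regions of 3 of the 10 genes are shown, each as the 250 bases before the RefSeq start site on GRCh38.p14, read 5′ to 3′ on the gene's own strand. Capitals mark CCGGAA, a form of the site that ETS factors bind. Their core is GGAA or GGAT, and cores with other bases around them, such as GGAA in the DUSP6 region, are left unmarked. DUSP6 is shown at chr12:89352502-89352751 (minus strand), the first of the SPRY2 starts at chr13:80341127-80341376 (minus strand), and SPRY4 at chr5:142324248-142324497 (minus strand).
DUSP6: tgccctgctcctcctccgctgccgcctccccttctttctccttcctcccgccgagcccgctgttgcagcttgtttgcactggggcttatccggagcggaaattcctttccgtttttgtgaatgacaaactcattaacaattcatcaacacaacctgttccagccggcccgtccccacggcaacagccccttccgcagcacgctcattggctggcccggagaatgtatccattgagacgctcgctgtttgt
SPRY2: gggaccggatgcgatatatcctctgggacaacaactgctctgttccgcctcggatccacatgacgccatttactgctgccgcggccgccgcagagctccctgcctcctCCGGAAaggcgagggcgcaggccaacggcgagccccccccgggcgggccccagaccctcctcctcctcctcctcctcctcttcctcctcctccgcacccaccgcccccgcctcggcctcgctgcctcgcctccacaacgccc
SPRY4: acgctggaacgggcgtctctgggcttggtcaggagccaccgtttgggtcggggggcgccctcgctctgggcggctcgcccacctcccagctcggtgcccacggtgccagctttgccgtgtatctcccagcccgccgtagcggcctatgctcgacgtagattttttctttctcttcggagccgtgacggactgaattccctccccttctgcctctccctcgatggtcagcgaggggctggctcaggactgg
The RefSeq table held 10 starts of 6 of the genes, DUSP6, SPRY1, SPRY2, SPRY4, SPRED1 and SPRED2. CCGGAA was found on either strand before 2 of the 10 starts, at 142 bases before the first SPRY2 start and 67 bases before a SPRY1 start, against 14.5% of 35116 promoters of the same length. TGAATGNA, the sequence CIC binds, was found before 0 of the 10 starts and in 3.25% of promoters. TGANTCA, bound by AP-1, and TGACGTCA, the cyclic AMP response element, were also found before 0 of the 10, against 6.57% and 1.65% of promoters. These motifs were matched letter for letter, so other spellings of the same sites were not counted.

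The libraries held between 35856642 (Lan-6) and 58644013 (LS) counts. Levels are given as CPM, which are counts after scaling to equal library size, and intervals cover counting error only. Of 8 markers of sympathetic neuroblasts, 4 to 8 were over 1 CPM in each line, and their summed level lay between 304 CPM (SK-N-SH) and 5559 CPM (CLB-GA). TH, an enzyme that makes catecholamines, had a count of 0 in SK-N-SH. Endothelial markers summed to at most 5.10 CPM and Schwann cell markers to at most 11.4 in any line. In Lan-6 and GI-ME-N, long transcripts were read low, with a Spearman rho between a gene's deviation and its length of -0.429 and -0.395 over genes, against -0.0891 to 0.233 in the other lines. Genes rich in GC were read high in Lan-6, with a rho between deviation and GC content of 0.647, against -0.365 to 0.239 in the other lines. Values with the trends on length and GC content removed are given below where they move a level by over 1.5 times.

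DUSP6, which acts on ERK in the cytoplasm (chr12:89347232-89353271, minus strand, GRCh38), ran from 0.556 CPM in SK-N-DZ through a median of 28.9 to 261 in SK-N-AS. SK-N-AS, SK-N-FI (116 CPM), CLB-GA (104) and SH-SY5Y (98.0) were the 4 highest, and SK-N-DZ, IMR5-75 (1.95), NGP (4.25) and IMR32 (4.72) were the 4 lowest. Among the 13 neighbouring pairs in that order, the 95% counting intervals overlapped in only 2, NGP with IMR32 and SK-N-BE(2)C with LS. With 1 library per line, no step in that order has a replicate check. DUSP4, a nuclear phosphatase of ERK and related kinases (chr8:29333064-29350668, minus strand), ran from 1.90 CPM in SK-N-DZ through 87.1 to 1285 in SK-N-FI. The SK-N-FI level stood far above the next, 256 CPM in SK-N-BE(2)C, and IMR32 was next at 253 although its DUSP6 level was among the lowest. DUSP5, a nuclear ERK phosphatase (chr10:110497838-110511544, plus strand), ran from 1.49 CPM in SH-SY5Y through 8.03 to 51.4 in SK-N-SH. SK-N-SH, GI-ME-N (36.7), SK-N-FI (32.3), SK-N-AS (32.3) and Lan-6 (23.1) were the 5 highest, and the Lan-6 level was 14.3 CPM with the length and GC trend removed. In a bulk library, fewer cells that express a gene and less RNA per cell cannot be told apart.

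Of the Sprouty genes, SPRY2 (chr13:80335976-80340951, minus strand) was measured in every line, from 6.69 CPM in IMR5-75 through a median of 46.7 to 181 in SK-N-AS. Its 4 lowest lines were the same as for DUSP6, in another order: IMR5-75, SK-N-DZ at 10.3, IMR32 at 10.9 and NGP at 12.8 CPM. SPRY4 (chr5:142310427-142326455, minus strand) ran from 0.128 CPM in SK-N-DZ, where it had 6 counts, through 56.3 to 220 in SK-N-BE(2)C. Its levels fell apart into 5 lines at or below 5.51 CPM (SK-N-DZ, NGP, IMR5-75, LS and IMR32) and 9 lines at or above 37.4, with none between. SPRY1 (chr4:123396795-123403760, plus strand) was low in most lines, with a count of 0 in Lan-6, which allows up to 0.102 CPM, and a median of 1.475 CPM. SK-N-AS stood apart at 152 CPM, followed by SK-N-SH at 17.3 and LS at 13.5, and 8 of the 13 neighbouring pairs overlapped in their counting intervals. SPRY4 overlaps SPRY4-AS1 on the opposite strand, and DUSP6, ETV4 and ETV5 also overlap genes on the opposite strand. The sources used here give no strand setting for the counting. On the same strand, ETV5 overlaps DGKG and SPRED2 overlaps AC012370.1.

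The SPRED genes differed least between lines. SPRED1 (chr15:38252326-38357249, plus strand) ran from 14.0 CPM in Lan-6 through 39.3 to 91.0 in LS. The Lan-6 level was 26.6 CPM with the trend removed, and SK-N-DZ was then lowest at 12.7. SPRED2 (chr2:65310851-65432637, minus strand) ran from 30.0 CPM in SK-N-DZ through 63.6 to 168 in SK-N-AS, and the counting intervals of SK-N-AS and CLB-GA (165) overlapped. The SD of log2 CPM over the 14 lines was 0.89 for SPRED1 and 0.78 for SPRED2, against a median of 0.72 over 12535 genes whose mean reached 5 CPM. The other 8 genes had SDs from 1.49 for SPRY2 to 3.19 for SPRY4.

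ETV4, which turns on growth and migration genes (chr17:43527844-43579620, minus strand), ran from 0.128 CPM in SK-N-DZ, with 6 counts, through 50.5 to 171 in Lan-6. NGP was also near 0 at 0.591 CPM, and LS, IMR5-75 and IMR32 were at 3.60, 4.12 and 9.78. With the trend removed, ETV4 in Lan-6 was 85.0 CPM and in GI-ME-N it was 103 instead of 124, so the highest line depends on that step. ETV5, its close relative (chr3:186046308-186110318, minus strand), ran from 1.26 CPM in NGP through 58.6 to 121 in SK-N-BE(2)C, and SK-N-DZ was at 1.28. In the log2 values that the authors also deposited, ETV5 was 8.79 in NGP, 7.67 in SK-N-DZ and 8.22 in IMR5-75 (9.35 CPM). SPRY4, with the same 47 counts in NGP, was 6.36 there. The lowest ETV5 line and its distance from the others thus depend on the scale, and the reason was not tested. The same 5 lines, NGP, SK-N-DZ, IMR5-75, IMR32 and LS, were lowest for ETV4, ETV5 and SPRY4. Per kilobase of the longest coding transcript, the median levels were highest for ETV4 at 20.8 CPM and lowest for SPRY1 at 0.566, with DUSP6 at 6.56.

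**Figure D1:**
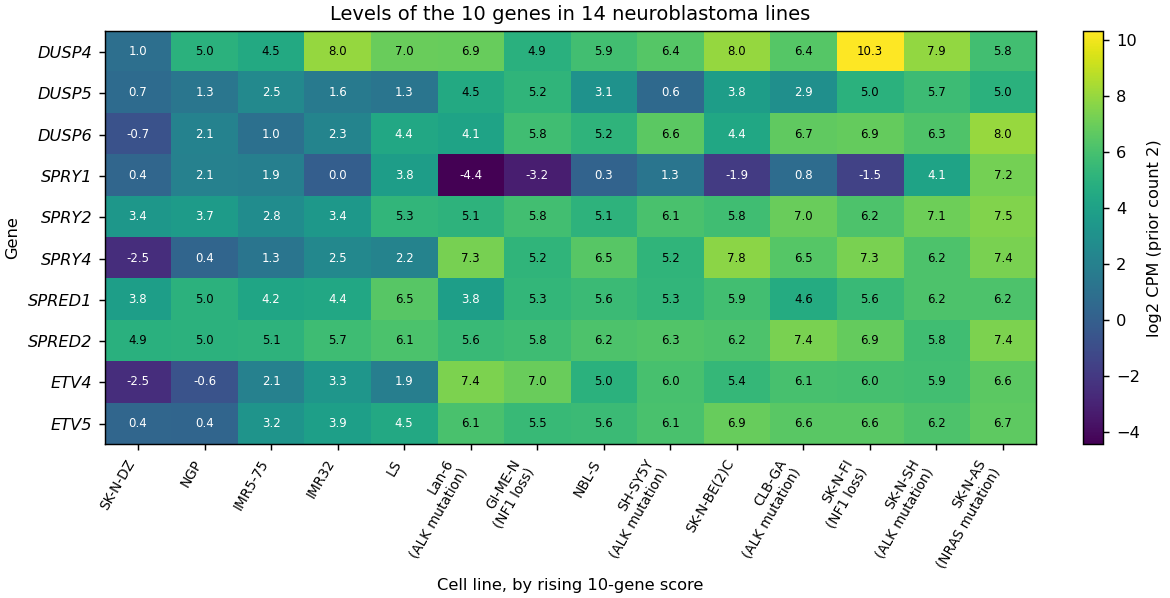
Level of each of the 10 genes (rows) in each of the 14 lines (columns, ordered by the mean centred log2 CPM of the 10 genes), as log2 CPM with a prior count of 2; the colour and the number in a cell show the same value. SK-N-DZ, NGP, IMR5-75 and IMR32 on the left are low in most rows, SK-N-AS on the right is high, and SPRY1 follows another order.

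Summed up as a score, the mean over the 10 genes of log2 CPM centred on the 14 lines, the lines ran from -3.60 in SK-N-DZ and -2.05 in NGP up to 1.66 (SK-N-SH) and 2.30 (SK-N-AS). SK-N-DZ was above the median line for 0 of the 10 genes, and was the lowest line for 5. SK-N-AS, SK-N-FI and SK-N-SH were each above the median for 9 of the 10, and SK-N-AS was the highest line for 4. SK-N-AS also held 470 CPM of PTPRC, a leukocyte gene, while CD3E, a T cell gene, was at most 0.0683 CPM in any line. IMR32, IMR5-75 and NGP were above the median for 1 gene each. The 1 gene was DUSP4 in IMR32 and SPRY1 in IMR5-75 and NGP.

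The 7 lines with a named lesion were set beside the other 7, as ranges and medians without a test, since the labels define no such groups. The median level was higher in the lesion lines for 10 of the 10 genes, against 47.7% of 16925 genes, and the median difference of medians was 2.39 on the log2 scale against -0.04 over all those genes. These medians count subclones and their parents as separate lines. Without the subclones, the middle SPRY1 levels were 0.307 (SK-N-FI) and 1.67 CPM (CLB-GA) in the lesion lines. In the others they were 1.16 (NBL-S) and 1.28 CPM (SK-N-DZ), so the SPRY1 median was then lower in the lesion lines. The count of 10 of 10 thus depends on including the subclones. Only ETV4 did not overlap: it ran from 59.0 CPM through 66.6 to 171 in the lesion lines and from 0.128 through 4.12 to 42.0 in the others, a pattern that 0.739% of genes showed. The opposite pattern was found in 0 of the 10 and in 0.544% of genes. ETV4 was also the 1 gene of 10 found with DESeq2's size factors, with the deposited log2 values, with the trend removed and without the subclones, alternatives chosen after the data were seen. DUSP6 ran from 17.2 through 98.0 to 261 CPM in the lesion lines and from 0.556 through 4.72 to 36.3 in the others. In that gene 6 of the 7 lesion lines were above the highest other line, and Lan-6 was not.

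**Figure D2:**
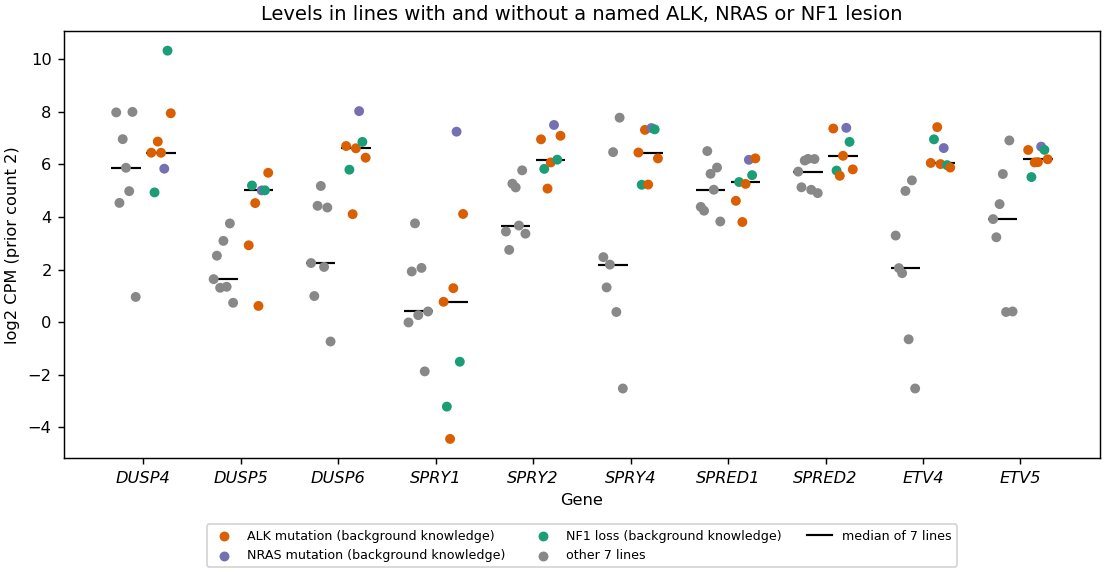
Level of each of the 10 genes on a log2 CPM axis (prior count of 2), with 1 point per line, coloured by the lesion known for the line. ETV4 is the gene whose 7 lesion lines all lie above the other 7 lines.

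ETV5 ran from 45.9 through 73.4 to 102 CPM in the lesion lines and from 1.26 through 15.1 to 121 in the others. SPRY4 ran from 37.4 through 87.7 to 167 CPM in the lesion lines and from 0.128 through 4.52 to 220 in the others. Both overlapped through SK-N-BE(2)C and NBL-S, for which no lesion is named here. SPRY2 ran from 33.9 through 72.6 to 181 CPM against 6.69 through 12.8 to 54.8, and DUSP5 from 1.49 through 32.3 to 51.4 against 1.62 through 3.07 to 13.5. The DUSP5 overlap came from SH-SY5Y and CLB-GA (7.56). DUSP4, SPRY1, SPRED1 and SPRED2 overlapped widely, with differences of medians of 0.57, 0.37, 0.29 and 0.60 on the log2 scale. The lesion lines also held the 7 lowest MYCN levels, at most 49.95 CPM against at least 213 CPM in the other lines, so lesion and MYCN level cannot be told apart in these lines. NF1 stood at 3.66 CPM in GI-ME-N, 87.0 in SK-N-FI and at least 43.0 in the other lines. ALK stood at 0.192 CPM in SK-N-SH and 24.7 in Lan-6 but 258 in CLB-GA and 262 in SH-SY5Y, so the ALK lines did not share an ALK level.

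The 10 genes were then compared with each other over 12 lines, leaving out the subclones SH-SY5Y (of SK-N-SH) and IMR5-75 (of IMR32), as correlations that describe these libraries. The points share 1 extraction and library protocol, and each carries the depth and length trend of its library. The median Pearson r of the 45 pairs was 0.604, and 0.425 without SK-N-DZ. SPRY4 and ETV5 had r = 0.95 and Spearman rho = 0.93, DUSP6 and SPRY2 had r = 0.93 and rho = 0.94, and SPRY4 and ETV4 had r = 0.95 with rho = 0.65. SPRY1 reached an r of at most 0.55, with SPRED1, and its r with the mean of the other 9 was 0.01. For the other genes that r ran from 0.57 for SPRED1 to 0.95 for DUSP6.

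**Figure D3:**
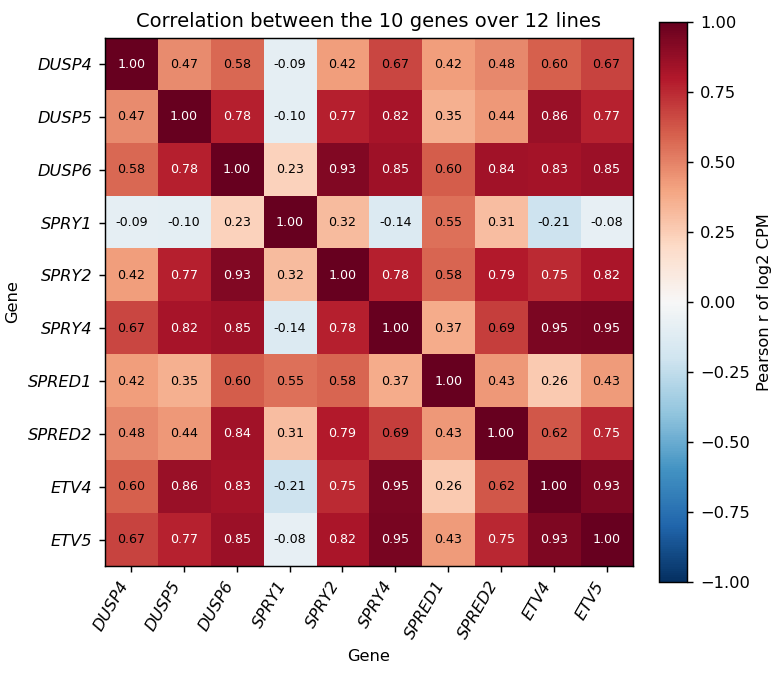
Pearson r of log2 CPM (prior count of 2) between each pair of the 10 genes over 12 lines, with colour and number showing the same value. SPRY4, ETV4 and ETV5 form a block with r of at least 0.93, DUSP6 and SPRY2 reach 0.93, and the SPRY1 row is near or below 0 for most genes.

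Of 12533 genes outside the 10, those whose log2 level over the same 12 lines was most like the score were DMWD (r = 0.87), RBM43 (0.86), HELZ2 (0.86), TOR1B (0.85), TEP1 (0.84), TAF13 (0.84), RAB36 (0.83), FUCA2 (0.83), MT-ND4L (0.83) and TMEM50B (0.82). Those most opposed to it were SUZ12P1 (-0.88), ZCCHC18 (-0.88), KCP (-0.85), ARRB2 (-0.85) and ST8SIA1 (-0.84). Without SK-N-DZ, r ran from 0.61 (MT-ND4L) to 0.88 (TOR1B) in the first set. In the opposed set it ran from -0.83 (ZCCHC18) to -0.69 (KCP).

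Next, every gene was fitted with a slope on the DUSP6 level over the 12 lines, in log2 units per SD, with edgeR's quasi-likelihood test. The other 9 genes all had positive slopes, as 51.8% of 18670 genes did. None passed an adjusted p of 0.05, nor did any gene in the table, where 1407 had an unadjusted p under 0.05. Of the 9, 8 had an unadjusted p under 0.05, all rising, against 3.94% of all genes, and 0 were falling, against 3.59%. SPRY2 had a slope of 1.28 (SE 0.18) and the lowest p of all genes, with an adjusted p of 0.118. SPRED2 had a slope of 0.69 (SE 0.14), DUSP5 1.47 (SE 0.38) and ETV5 1.76 (SE 0.49), with adjusted p of 0.234, 0.362 and 0.429. SPRY4 at 2.32 (SE 0.99), ETV4 at 2.07 (SE 0.90), SPRY1 at 1.64 (SE 0.68) and SPRED1 at 0.57 (SE 0.25) also had an unadjusted p under 0.05, and DUSP4 at 1.22 (SE 0.63) had an unadjusted p of 0.0761. Without SK-N-DZ, the line with the lowest DUSP6, the slopes were 0.97 for SPRY4, 0.90 for ETV4, 0.98 for ETV5 and 0.33 for SPRED1. Without both SK-N-DZ and NGP they were 0.47 for SPRY4, 0.42 for ETV4, 0.54 for ETV5 and 0.93 for DUSP5. In each fit the SD was taken over the lines kept, so slopes from different sets of lines are not in the same unit. A slope per SD can thus change through the SD alone, but its p-value does not depend on that unit. Without SK-N-DZ and NGP, the lines with the lowest SPRY4 and ETV4, the adjusted p with edgeR's test was 0.969 for both genes. Over the 12 lines it was 0.621 for SPRY4 and 0.634 for ETV4. SPRY1 was at 0.55 without SK-N-AS, and DUSP4 lay between 0.29 (without SK-N-FI) and 2.10 (without IMR32). SPRY2 stayed between 1.18 and 1.35, SPRED2 between 0.61 and 0.75 and DUSP5 between 1.22 and 1.59 when any 1 line was left out. DESeq2 called 6 of the 9 (DUSP5, ETV4, ETV5, SPRED2, SPRY2 and SPRY4) among 564 genes, and limma on the deposited log2 values called SPRY2 alone.

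MYCN, the transcription factor amplified in many neuroblastomas, was lowest in SK-N-SH (0.384 CPM) and highest in SK-N-BE(2)C (2245 CPM). Fitted on its level, 1 of the 10 genes was called: DUSP5 fell by 1.24 on the log2 scale per SD (SE 0.31, adjusted p = 0.0487 with edgeR's quasi-likelihood test). Of 17768 genes, 2.5% were called falling and 1.1% rising. The DUSP5 call stood at the threshold and was lost in 9 of the 12 fits that each left out a line, with adjusted p from 0.0386 to 0.107 over the 12. It was kept without SK-N-BE(2)C, without SK-N-AS and without SK-N-FI, and it was also lost with the length and GC trend removed (adjusted p = 0.0575). Of the 10, 5 had an unadjusted p under 0.05 with a falling slope, against 14.5% of genes: DUSP5, DUSP6 at -1.50 (SE 0.48), SPRY1 at -1.63 (SE 0.69), ETV4 at -1.37 (SE 0.58) and SPRY2 at -0.94 (SE 0.27). None had one with a rising slope, against 10.5% of genes. The SPRY1 slope turned to 2.04 without SK-N-SH and SK-N-AS, the lines with the lowest MYCN and the highest SPRY1. SPRY4 was at -0.41 and ETV5 at -0.47, with SK-N-BE(2)C combining the highest MYCN with the highest SPRY4 and ETV5. Without SK-N-BE(2)C these slopes were -1.77 and -1.19, and that of ETV4 was -2.13. Without SK-N-AS the slope of SPRY1 was -0.39 and that of SPRED2 -0.16 instead of -0.36. DESeq2 called 4 of the 10 (DUSP5, DUSP6, ETV4 and SPRY2) among 3173 genes. The count of all called genes, 641, was itself unstable: it was 0 without IMR32, without NGP or without SK-N-DZ, 8 without GI-ME-N and 14 without SK-N-SH.

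**Figure D4:**
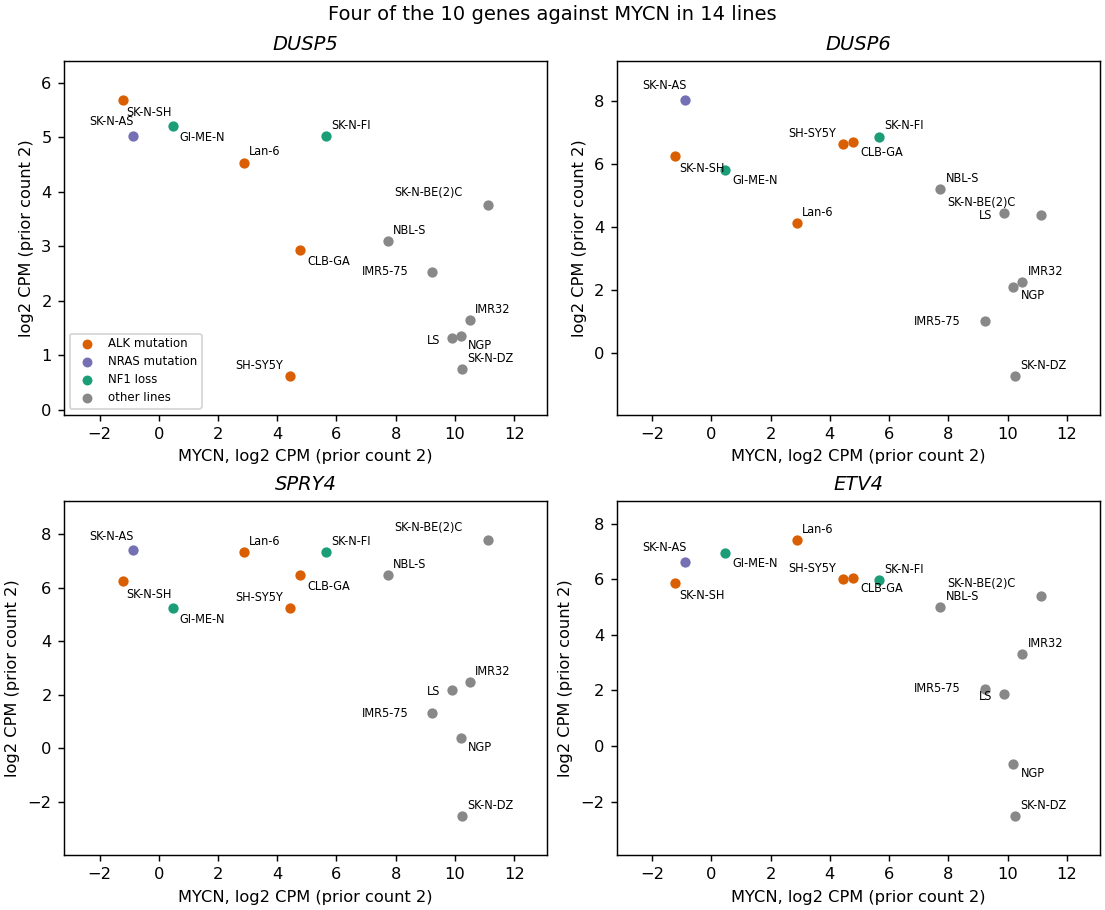
Levels of DUSP5, DUSP6, SPRY4 and ETV4 (y) against MYCN (x) in 14 lines, both as log2 CPM with a prior count of 2, coloured by lesion. The 7 lines with a named lesion lie at the left, at or below 49.95 CPM of MYCN, and SK-N-BE(2)C and NBL-S hold high SPRY4 at high MYCN.

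Neuroblastoma lines also differ in a mesenchymal state, scored here from 15 genes such as VIM, FN1 and PRRX1. The score was 5.99 for SK-N-SH, 4.94 for GI-ME-N, 2.24 in LS and 1.25 in SK-N-AS, and between -2.59 and -0.19 in the other lines. SK-N-SH and GI-ME-N are both lesion lines with low MYCN, and the part of this state in the differences above was not tested. On this score edgeR's quasi-likelihood test called 0 of the 10 genes, against 3.31% of 18198 genes rising and 2.02% falling. SPRY1 alone had an unadjusted p under 0.05, with a slope of 3.89 (SE 1.67, adjusted p = 0.221), against 9.49% of genes rising, and 0 had one falling, against 9.51%. That slope was 1.79 without SK-N-AS. DESeq2 called SPRY1 alone of the 10. The other 9 had slopes between -0.41 and 0.59, and limma called 0 of the 10. The count of all called genes, 969, was 474 without GI-ME-N, 495 without SK-N-SH and 55 without both.

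**Figure D5:**
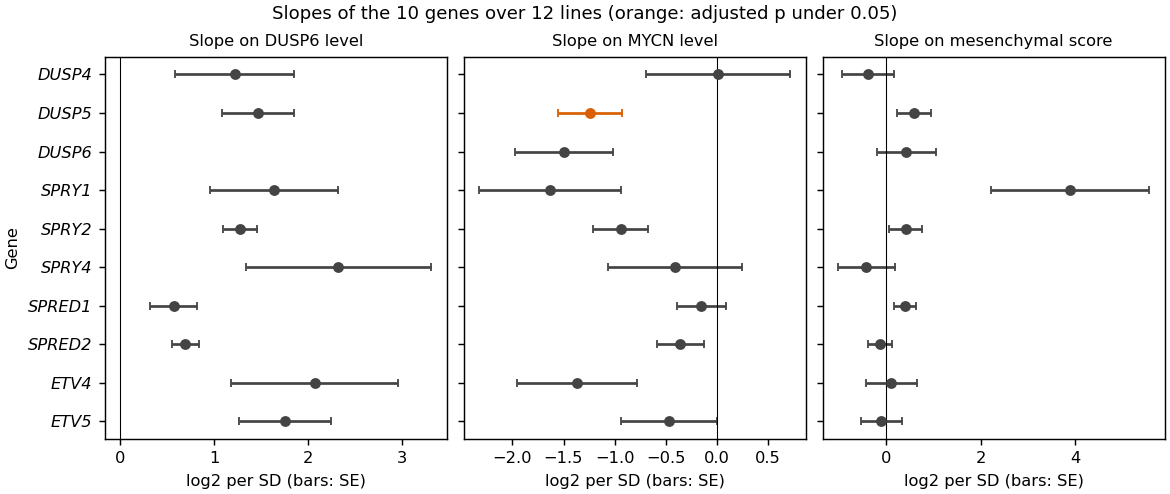
Slope of each of the 10 genes on the DUSP6 level, the MYCN level and the mesenchymal score over 12 lines, in log2 units per SD, with bars of 1 SE; the horizontal scales differ and DUSP6 has no slope on itself. All slopes on DUSP6 lie above 0, DUSP5 on MYCN is the one point with an adjusted p under 0.05 (orange), and SPRY1 has the largest slope on the mesenchymal score.

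Other genes of the pathway were read from lists chosen beside the 10. Of 20 further ERK-responsive genes, 0 were called on DUSP6 and 7 had an unadjusted p under 0.05, each rising, against 3.94% of all genes: MYC, FOSL1, EPHA2, EGR1, IER3, PHLDA1 and SPRED3. DESeq2 called 6 of the 20 (EGR1, EPHA2, FOSL1, HMGA2, MYC and SPRED3) and limma 0. On MYCN, 3 of the 20 fell by edgeR's quasi-likelihood test, against 2.5% of genes: MYC by 3.60 (adjusted p = 0.0170), FOSL1, an AP-1 subunit, by 4.26 (adjusted p = 0.0239), and LIF, a cytokine, by 2.32 (adjusted p = 0.0487). None of the 3 was called without IMR32, without NGP or without SK-N-DZ, and LIF was called in only 2 of the 12 fits without 1 line. MYC was between 6.65 and 150 CPM in the lesion lines and between 0.0641 and 0.849 in the others. On the mesenchymal score, 6 of the 20 rose (DUSP1, EPHA2, ERRFI1, FOSL1, HMGA2 and LIF), against 3.31% of genes, and HMGA2, a chromatin protein, had the steepest slope of 4.37 (SE 0.52, adjusted p = 4.8e-04). Without SK-N-SH and GI-ME-N, only HMGA2 of the 6 was called.

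Of 10 other ETS factors, 0 were called on DUSP6 or MYCN by edgeR, and 2 on each had an unadjusted p under 0.05, rising with DUSP6 (3.94% of genes) and falling with MYCN (14.5% of genes, a share near that of the list). DESeq2 called ELK3 on DUSP6 and none on MYCN, and limma called none on either. ELK3, an ETS factor that ERK phosphorylates, rose with the mesenchymal score (slope 0.96, SE 0.20, adjusted p = 0.0158 by edgeR), where 3.31% of genes rose, and the call was lost without SK-N-SH. ETV1, the third factor of the ETV4 group, ran from 0.0857 CPM in LS to 336 in SK-N-AS. Of the 16 genes of the cascade itself (RAS, RAF, MEK and ERK genes, NF1 and adaptors), 0 were called on DUSP6, MYCN or the mesenchymal score by edgeR, and 1, 2 and 0 had an unadjusted p under 0.05. The 1 was rising with DUSP6 and the 2 falling with MYCN, near the shares of all genes of 3.94% and 14.5%. DESeq2 called ARAF alone, falling with MYCN, and limma called none. Of 14 receptors, FGFR2 was the only one called, rising by 2.96 per SD of MYCN (SE 0.67, adjusted p = 0.0371), where 1.1% of genes rose. FGFR2 was called in 4 of the 12 fits without 1 line. RET, the receptor that GDNF family ligands use, was highest in CLB-GA at 1450 CPM and SK-N-FI at 498, and lowest in GI-ME-N at 1.08.

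The subclones were compared with their parents, 1 library against 1 with no replicate check. SH-SY5Y was below SK-N-SH for DUSP5 (1.49 and 51.4 CPM), SPRY1 (2.41 and 17.3) and DUSP4 (87.0 and 247). ETV4 (64.6 and 59.0 CPM), ETV5 (68.0 and 73.4) and DUSP6 (98.0 and 76.5) lay closer in the same pair. SPRY2 (67.5 and 136 CPM), SPRY4 (37.65 and 75.0) and SPRED1 (38.3 and 75.1) were also lower in SH-SY5Y, and SPRED2 (80.4 and 56.2) was higher. ETV5 was below the parent by only 0.11 on the log2 scale. IMR5-75 was below IMR32 for DUSP4 (23.2 and 253 CPM) and DUSP6 (1.95 and 4.72), and above it for SPRY1 (3.77 and 0.948) and DUSP5 (5.74 and 3.07). SPRY2, SPRED1, SPRED2 and ETV5 were also lower in IMR5-75. SPRY4 was at 2.46 CPM in IMR5-75 and 5.51 in IMR32, and ETV4 at 4.12 and 9.78, so both lines of the pair stayed in the low group.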

How the data were processed

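Per the labels' protocols, TRIzol served to isolate total RNA from the 14 lines and TruSeq to build the libraries. The authors deposited a table of whole numbers per gene symbol, read here as estimated counts, since the submitters' processing notes name kallisto 0.44.0 (with DESeq2 1.48.2 and the build GRCh38). The authors also deposited log2 values, called variance-stabilised, which served only as an alternative scale. For the counting, neither annotation nor strand setting is given in the sources used here.

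With edgeR 4.0.16 in R 4.3.3, counts were scaled by TMM to CPM and to log2 CPM, adding a prior count of 2. Transcript lengths and positions came from GENCODE 29. Slopes on DUSP6, MYCN or the mesenchymal score were fitted over 12 lines with edgeR's quasi-likelihood test on genes passing its expression filter, with Benjamini-Hochberg adjustment over all genes tested and a threshold of 0.05. The genes that made up a level were left out. Each level was scaled by its SD over the lines of that fit, so slopes from different sets of lines are per different SDs. P-values measure the spread between lines, technical differences between single libraries included. In simulated counts, a slope of 2 was called in 54% of genes for DUSP6, 66% for MYCN and 70% for the mesenchymal score, and a slope of 1 in 10%, 20% and 24%.

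The 10 genes, the lists and the tests were chosen with earlier results of these data known. Named genes were the 10, the members of the lists, and the 10 genes with the highest and the 5 with the lowest r with the score among those with a mean of at least 5 CPM. As alternatives served size factors and tests of DESeq2 1.42.0, limma 3.58.1 on the deposited log2 values, no filter, other sets of lines, a trend on GC content and length removed (mgcv 1.9.3), and leaving out each line. All 91 pairs of libraries differed in their counts, by a chi-square per gene of at least 273. A count of 0 allows up to 3 counts.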

Additional observations from a re-analysis of the deposited data

How the results depend on the processing

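Of 687 refitted slopes of the 10 genes, 636 kept their direction and side of the threshold, 14 lost the DUSP5 call on MYCN, 14 gained a call and 23 changed sign. On DUSP6, DESeq2 called 6 of the 9 other genes (564 of all genes), limma 1 (1), no filter 1 (3) and all 14 lines 1 (1), against 0. On MYCN, against 1 of the 10 and 641 genes, DESeq2 called 4 (3173 genes), all 14 lines 2 (1276), limma 1 (412), subclones in place of parents 0 (0), leaving out SK-N-SH and SK-N-AS, the lines farthest from the median, 0 (1441), and the trend removed 0 of the 10. Among alternatives added after the data were seen, leaving out Lan-6 and GI-ME-N gave 0 (163) and leaving out SK-N-DZ and NGP gave 0 (0). Leaving out 1 line gave 0 to 1 of the 10 and 0 to 1529 genes. On the mesenchymal score, against 0 of the 10 and 969 genes, DESeq2 called 1 (2602), and the count of genes was 560 with subclones in place of parents, 55 without SK-N-SH and GI-ME-N, and 474 to 1353 without 1 line. In alternatives added after the data were seen it was 501 without Lan-6 and GI-ME-N and 493 with a filter over all lines as 1 group. The cause was not tested.

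The slope of DUSP4 on MYCN, 0.01, became -0.00338 with DESeq2's size factors, -0.0012 with DESeq2, -0.22 with limma, -0.069 with all 14 lines, -0.073 with subclones in place of parents, -0.33 without the farthest lines, -0.35 without Lan-6 and GI-ME-N, and -0.25 to 0.21 without 1 line. Without SK-N-SH and SK-N-AS, SPRED1 on MYCN became 0.22 and SPRY1 2.04, so the falling SPRY1 slope rests on those lines. On the mesenchymal score, ETV5 became 0.000113 with limma, and without SK-N-SH and GI-ME-N DUSP5 became -0.080, ETV4 -0.46 and SPRED2 0.14. Without 1 line, the slopes on that score ran from -0.25 to 0.028 for ETV5, -0.20 to 0.0031 for SPRED2, -0.15 to 0.46 for ETV4 and -1.01 to 0.033 for DUSP4. The median r of the 45 pairs stayed between 0.551 and 0.671 over the scales and ran from 0.425 to 0.686 without 1 line. No paired analysis was possible because the labels give 1 group and no shared replicate numbers. Levels of genes with few counts, such as SPRY1 in Lan-6 and GI-ME-N, are limited by depth.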

Other observations

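The phosphatases DUSP8, DUSP10 and DUSP16, which act on the kinases p38 and JNK, were measured beside the ERK phosphatases. DUSP8 ran from 3.56 CPM in GI-ME-N to 115 in CLB-GA, and DUSP16 from 16.6 in GI-ME-N to 140 in SK-N-FI. DUSP8 fell by 1.23 on the log2 scale per SD of the mesenchymal score (SE 0.30, adjusted p = 0.0323 with edgeR's quasi-likelihood test), and was not called on DUSP6 or MYCN. The call was lost without GI-ME-N and without LS. CIC, the repressor of ETV4 and ETV5, ran from 78.8 CPM in SK-N-AS to 265 in Lan-6, and its partners ATXN1 and ATXN1L were called on none of the 3 levels.

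CCND1, a cell cycle gene often read as an ERK target, was lowest in SK-N-AS at 49.8 CPM, the line with the highest DUSP6, and highest in CLB-GA at 1995 CPM. Its slope on DUSP6 was 0.10 (SE 0.36). IL17RD, another inhibitor of the pathway, was highest in SH-SY5Y at 251 CPM, against 8.21 in its parent SK-N-SH.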
